A study of Mus musculus with 10 samples.

Results

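The integrated stress response is the programme by which cells answer amino acid shortage, unfolded protein, haem shortage or mitochondrial faults. Kinases phosphorylate the translation factor eIF2, general protein synthesis slows, and translation of the transcription factor ATF4 goes up, which then switches on genes of amino acid supply and stress signalling. Because ATF4 is controlled largely at translation, its mRNA level need not follow its activity. Mitochondrial faults are a known trigger of the response, and brown fat is a tissue dense in mitochondria.

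The list holds 10 genes: Atf4, Atf5, Ddit3, Trib3, Asns, Chac1, Psat1, Phgdh, Mthfd2 and Gdf15. Its members are the probe sets (groups of short probes read as 1 value) that the platform annotation gives to 1 of these genes alone. By that rule 9 of the 10 genes were measured, by 19 probe sets, out of 18193 genes and 34945 single-gene probe sets on the array. Gdf15, a secreted stress signal, is not analysed here. The brightest set of each gene, by its mean signal in the 10 arrays, is called the leading set. Of the 9 genes, 7 had several sets.

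Brown fat of 10 untreated littermates, about 1 year old and on a 129 background, was read on 1 Affymetrix array per sample. The wild-type (WT) group and the group labelled SIRT3 KO, lacking the mitochondrial deacetylase SIRT3, held 5 samples each. Values are RMA log2 signals, so a difference of 1 is a doubling. Neither the deleted stretch of Sirt3 nor the cells it was deleted in were stated in the labels. The leading Sirt3 set was not lower under the KO label, at 10.32 ± 0.07 (SD, n = 5) against 10.13 ± 0.10 (SD, n = 5) in WT. Whether it lies in the deleted stretch is not known, so it does not check the labels, and KO below means an array labelled KO.

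ATF4 and its partners bind the C/EBP-ATF response element, whose core was searched as TGATGNAA on both strands of the 300 bases from 250 before to 50 after each gene's start in the RefSeq table of build GRCm38.p6. Windows of all 10 listed genes were found, 13 in all, and 3 genes held the core: Asns, Chac1 and Trib3. Of all 32851 windows 3.97% held it. The stretches are shown because they hold the letters that ATF4 dimers are known to bind, with the core in capitals, read 5′ to 3′ along the gene's strand. A match describes the letters and does not show binding. The Chac1 and Trib3 cores lie on the opposite strand and are therefore read in reverse complement.
Asns, chr6:7693210-7693257, minus strand, core starting 23 bases before the start: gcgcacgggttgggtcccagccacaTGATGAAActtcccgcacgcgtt
Chac1, chr2:119351024-119351081, plus strand, core starting 193 bases before the start: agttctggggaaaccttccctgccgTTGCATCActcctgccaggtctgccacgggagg
Trib3, chr2:152344031-152344054, minus strand, core starting at base 15 of the transcript: gctcaggtTTACATCAgccgggcg

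The cAMP response element TGACGTCA was in 1.79% of all windows and the endoplasmic reticulum stress element in 0.119%, and neither was in a window of the listed genes. No match says only that these letters are not in these windows.

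Several markers of other cells and of handling differed between arrays. Ucp1, which marks brown fat, was bright in both groups at 14.18 ± 0.09 (SD, n = 5) in WT and 14.10 ± 0.09 (SD, n = 5) in KO. The mean of 19 skeletal muscle markers lay between 7.72 and 11.70 in WT and between 5.63 and 11.20 in KO, with KO 1 (5.86), KO 3 (5.63) and WT 5 (7.72) the lowest, and 19 of 19 had a lower KO mean. Immediate early and heat shock genes had a higher KO mean in 13 of 15, with list means of 7.75 to 9.11 in WT and 8.14 to 9.24 in KO. Endothelial markers were higher on average in 7 of 7, with list means of 8.21 to 8.70 and 8.63 to 8.72, and macrophage markers lower in 6 of 9, with 7.31 to 7.67 and 7.19 to 7.62. Markers of brown adipocytes were lower on average in 8 of 10, with list means of 11.62 to 12.14 in WT and 11.61 to 11.82 in KO. The 3′ minus 5′ signal of the pyruvate carboxylase control sets, a measure of RNA integrity and labelling, was 2.96 to 3.44 in WT and 2.77 to 2.95 in KO. The part of these lists in the differences below was not tested unless a value is given. In whole tissue, fewer cells of a type and less RNA per cell cannot be told apart.

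No member of the response passed the test between genotypes. By limma with Benjamini-Hochberg adjustment, 0 of 9 leading sets had an adjusted p under 0.05, beside 0% of all single-gene sets (0 of 34945), and the smallest adjusted p in the table was 0.885. At an unadjusted p under 0.05 there was 1 of 9 members, Asns, beside 5.41% of all sets. Groups overlapped in all 9 leading sets, beside 0.693% of all sets in which they did not. The KO mean was lower in 6 members and higher in 3, with a median difference of -0.06 log2 units, against -0.01 over all sets. With the muscle mean as a covariate 5 of the 9 were higher and the median was 0.055; over the other alternatives the median lay between -0.13 (without WT 5, KO 1 and KO 3) and -0.00099 (without sets named _s_at, _x_at or _a_at, which left 5 members). Over all 19 sets the KO mean was lower in 13. Among the leading sets the largest differences between the group means were -0.23 for Atf5 and -0.19 for Asns. The second Asns set differed by -0.25.

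**Figure D1:**
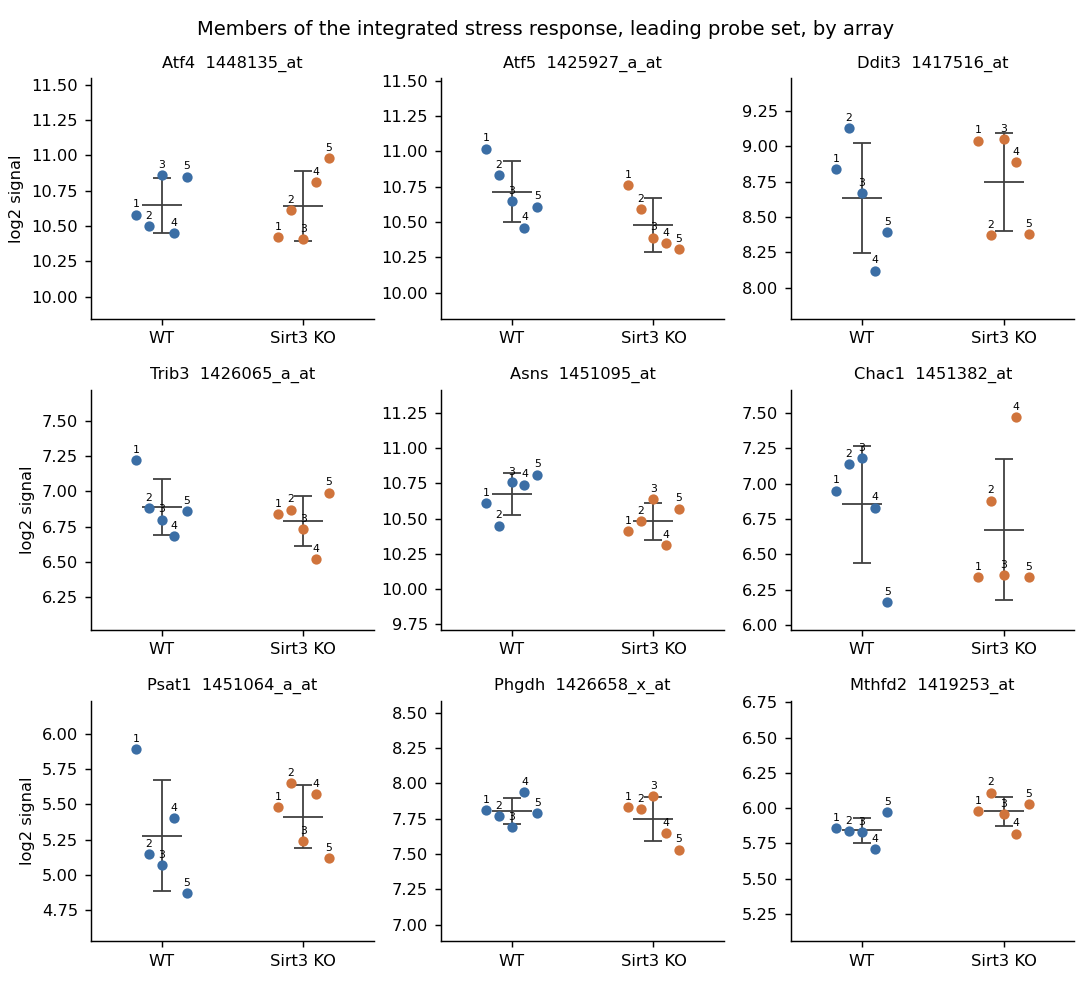
Log2 signal (vertical axis, each panel spanning the same height) of the leading probe set of the 9 measured members in WT and KO arrays; points are arrays, numbered by replicate, with the group mean and SD as bars. The groups overlap in every panel, and Chac1 spreads most, from 6.16 to 7.47.

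Among the transcription factors, Atf4, the central activator, had the same mean in both groups. Its leading set gave 10.58, 10.50, 10.86, 10.45 and 10.85 in WT 1 to 5, and 10.42, 10.61, 10.41, 10.81 and 10.98 in KO 1 to 5. High and low arrays occurred in both groups: WT 3, WT 5, KO 4 and KO 5 were at 10.81 or above and the other 6 at 10.61 or below. The difference was -0.001 ± 0.12 log2 units (SE), with a 95% confidence interval from -0.27 to 0.27, or 0.827 to 1.21 times the WT signal. A dimmer Atf4 set, 1438992_x_at, differed by 0.15 ± 0.16 and followed the leading set over the arrays (r = 0.86, rho = 0.82, permutation p = 0.0012 and 0.0054, adjusted p = 0.0041 and 0.019 over 14 pairs of sets of 1 gene; r = 0.78 without the 2 arrays farthest from the median). The third set, 1439258_at, with a mean of 5.34 in the lower part of the table, differed by -0.02 ± 0.061 and did not follow the leading one (r = -0.17, rho = -0.30, permutation p = 0.62 and 0.41, adjusted p = 0.67 and 0.63; r = 0.087 without 2 arrays).

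Atf5, a relative of ATF4 linked to the mitochondrial unfolded protein response, had the largest difference among the leading sets. Its single set gave 11.02, 10.83, 10.65, 10.46 and 10.61 in WT 1 to 5, and 10.76, 10.59, 10.39, 10.35 and 10.31 in KO 1 to 5. The 3 lowest arrays were KO and the 2 highest were WT, while KO 1 lay above WT 3, WT 4 and WT 5. The difference was -0.23 ± 0.11, with a confidence interval from -0.48 to 0.02 and an adjusted p of 0.885 by limma; 1 of 5 KO arrays lay above the WT mean. It ran from -0.35 without WT 4 and WT 5 to -0.16 without WT 1.

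Ddit3, which encodes CHOP, the factor tied to stress-induced cell death, varied widely within both groups. Its leading set gave 8.84, 9.13, 8.67, 8.12 and 8.39 in WT 1 to 5, and 9.04, 8.37, 9.05, 8.89 and 8.38 in KO 1 to 5. Each group held values near 9 and values below 8.4. The difference was 0.11 ± 0.20, with a confidence interval from -0.32 to 0.55, and the second set, 1443897_at, gave 0.11 ± 0.11. The sign turned without WT 4 (-0.014) and without WT 4 and WT 5 (-0.14).

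Trib3 and Chac1 act downstream of ATF4, and their sets were lower on average in KO. Trib3 encodes a pseudokinase that binds ATF4 and CHOP and damps the response. Its leading set gave 7.22, 6.88, 6.80, 6.68 and 6.86 in WT 1 to 5, and 6.84, 6.87, 6.73, 6.52 and 6.99 in KO 1 to 5. WT 1 was the highest and KO 4 the lowest, and the others lay within 6.68 to 6.99. The difference was -0.10 ± 0.11, with a confidence interval from -0.33 to 0.14; without WT 1 it was -0.016. The second Trib3 set, 1456225_x_at, differed by -0.07 ± 0.085.

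Chac1, an enzyme that degrades glutathione, varied most among the leading sets. Its single set gave 6.95, 7.14, 7.18, 6.83 and 6.16 in WT 1 to 5, and 6.34, 6.88, 6.35, 7.47 and 6.34 in KO 1 to 5. WT 5, KO 1, KO 3 and KO 5 lay between 6.16 and 6.35 and the other 6 arrays at 6.83 or above. The span between the lowest and the highest array was 1.31 log2 units, or 2.47-fold, and its SD within groups was larger than that of 97.9% of all sets. A dimmer Phgdh set, 1454714_x_at, spanned 1.53 log2 units. The Chac1 difference was -0.18 ± 0.24, with a confidence interval from -0.71 to 0.36. Of the 4 low arrays, 3 were also the lowest in muscle markers (WT 5, KO 1 and KO 3), and with the muscle mean as a covariate the difference was 0.055. It was -0.13 without those 3 arrays, -0.094 without KO 1 and -0.38 without KO 4.

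Asns, asparagine synthetase, a classical ATF4 target whose promoter stretch is printed above, had the smallest p of the members. Its leading set gave 10.61, 10.45, 10.76, 10.74 and 10.81 in WT 1 to 5, and 10.41, 10.48, 10.64, 10.31 and 10.57 in KO 1 to 5. All 5 KO arrays lay below the WT mean, but WT 2 lay among them and KO 3 above WT 1. The difference was -0.19 ± 0.085, with a confidence interval from -0.38 to -0.01, or a KO signal of 0.768 to 0.994 times that of WT. The second Asns set, 1433966_x_at, gave -0.25 ± 0.097 and ordered the arrays alike (r = 0.97, rho = 0.95, adjusted permutation p = 0.00028 and 0.00070; r = 0.94 without 2 arrays). Both sets had an unadjusted p under 0.05 (0.042 and 0.024) and an adjusted p of 0.885 by limma. The sets read the same RNA, so the second is no further replicate. The difference was -0.24 with the muscle covariate and -0.12 without WT 4 and WT 5.

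Phgdh and Psat1 encode the first steps of serine synthesis from glycolysis. The leading Phgdh set gave 7.81, 7.77, 7.69, 7.94 and 7.79 in WT 1 to 5, and 7.83, 7.82, 7.91, 7.65 and 7.53 in KO 1 to 5. The KO arrays held both the second highest value and the 2 lowest. The difference was -0.06 ± 0.079, with a confidence interval from -0.23 to 0.12. It was -0.00071 without KO 5, -0.021 without WT 4 and -0.14 without WT 5, KO 1 and KO 3. The other 3 single-gene sets differed by -0.05 ± 0.069, -0.12 ± 0.15 and -0.19 ± 0.30. The 4 Phgdh sets did not all read alike: over the 6 pairs r lay between 0.020 (1426658_x_at with 1454714_x_at; rho = -0.055, permutation p = 0.96 and 0.89, adjusted p = 0.96 and 0.89, r = -0.16 without 2 arrays) and 0.80 (1456584_x_at with 1437621_x_at; rho = 0.71, permutation p = 0.0051 and 0.027, adjusted p = 0.014 and 0.076, r = 0.70 without 2 arrays). All 4 are of the _x_at kind, which can bind other transcripts, and 2 further sets that the annotation shares between Phgdh and another gene, not members, differed by -0.07 and -0.23.

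The leading Psat1 set gave 5.89, 5.15, 5.07, 5.40 and 4.87 in WT 1 to 5, and 5.48, 5.65, 5.24, 5.57 and 5.12 in KO 1 to 5. WT 1 was the highest and WT 5 the lowest, so the KO values lay inside the WT range. The difference was 0.13 ± 0.17, with a confidence interval from -0.25 to 0.51, and the second set gave -0.09 ± 0.20. With 1 array left out the difference lay between 0.031 (without WT 5) and 0.29 (without WT 1), and it was 0.022 with the mean of both sets. Mthfd2, a mitochondrial enzyme of one-carbon metabolism, gave 5.86, 5.84, 5.83, 5.71 and 5.97 in WT 1 to 5, and 5.98, 6.11, 5.96, 5.82 and 6.03 in KO 1 to 5. In KO, 4 of 5 arrays lay above the WT mean, but WT 5 lay above KO 3 and KO 4. The difference was 0.13 ± 0.067, with a confidence interval from -0.01 to 0.28, and the second set gave 0.16 ± 0.15. The leading sets of Psat1 and Mthfd2 had means of 5.34 and 5.91, below the median mean of 5.99 over all sets. RMA gives no detection call, so how far these values lay above background is not known.

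**Figure D2:**
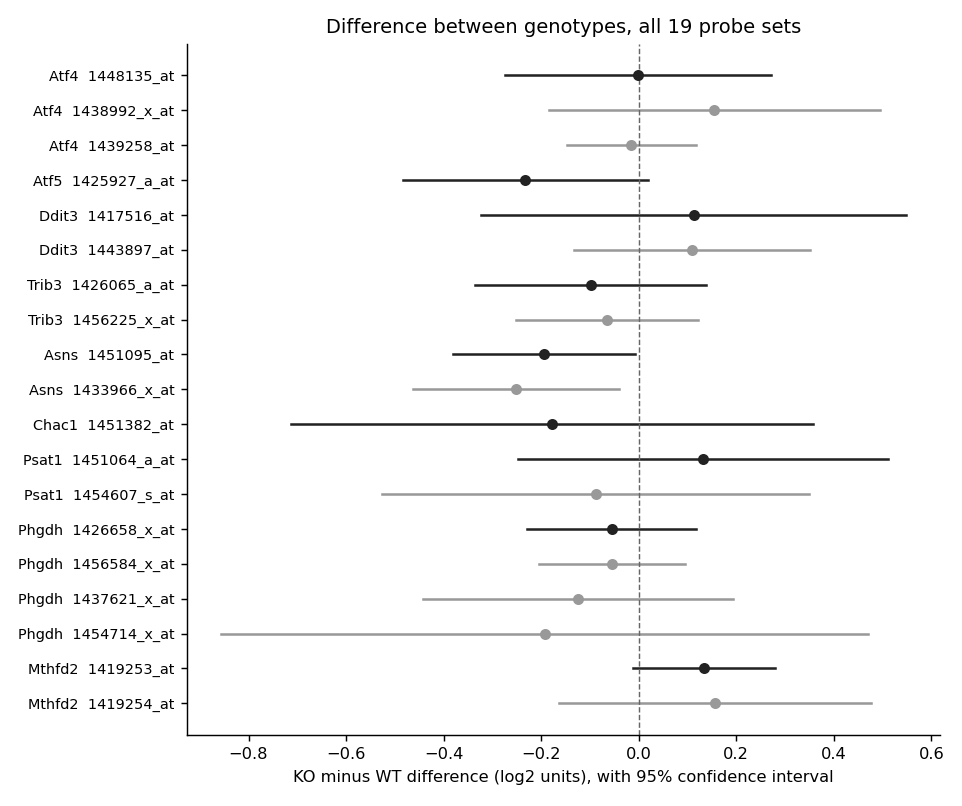
KO minus WT differences in log2 units (horizontal axis) with 95% confidence intervals for all 19 member probe sets, leading sets in black and the others in grey. Only the intervals of the 2 Asns sets leave out 0, before any adjustment over the table.

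The sets of 5 of the 7 genes with several lay on the same side of 0: Ddit3, Trib3, Asns, Phgdh and Mthfd2. Those of Atf4 and Psat1 lay on both sides. Spread within groups was larger than the table's median SD of 0.127 log2 units in 8 of the 9 leading sets, Mthfd2 being the other one, at 0.097. The precision therefore differed between the leading sets, from a confidence interval of 0.992 to 1.21 times the WT signal for Mthfd2 to one of 0.610 to 1.28 times for Chac1.

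Members showed no common course from array to array. Over the 36 pairs of leading sets and 10 arrays, Pearson's r was above 0 in 19 pairs, with a median of 0.012 and a range from -0.85 to 0.65. By permutation tests with 100000 resamples, 2 pairs had an unadjusted p under 0.05 and 1 had an adjusted p under 0.05. That pair, Atf4 and Phgdh, ran in opposite directions (r = -0.85, rho = -0.83, permutation p = 0.0010 and 0.0045, adjusted p = 0.037 and 0.16). Phgdh was lowest in KO 5, where Atf4 was highest, and highest in WT 4 and KO 3, where Atf4 was among the 3 lowest. Taken as deviations from each group's mean, r was -0.87, with an adjusted p of 0.042 by permutation. Without WT 3 and KO 5, the arrays farthest from the Atf4 median, r was -0.70 and the adjusted p was 0.58. With 1 array left out r lay between -0.92 (without WT 5) and -0.77 (without KO 5). By exact permutation its adjusted p was 0.025 without WT 5 and 0.030 without WT 2, and with each of the other 8 arrays left out in turn it lay between 0.069 and 0.29. After a linear fit on the muscle mean r was -0.82, with an adjusted p of 0.079.

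The opposite course of Atf4 and Phgdh was not the same for all their sets, a comparison chosen after this r was seen. The leading Atf4 set gave r = -0.64 with 1456584_x_at (rho = -0.55, permutation p = 0.040 and 0.10), r = -0.51 with 1437621_x_at (rho = -0.22, permutation p = 0.13 and 0.54) and r = 0.18 with 1454714_x_at (rho = 0.19, permutation p = 0.61 and 0.61); adjusted over 8 pairs of sets, their p were 0.064, 0.18 and 0.69 for r and 0.21, 0.61 and 0.61 for rho. Without the 2 arrays farthest from the Atf4 median those r were -0.36, -0.33 and 0.51. The dimmer Atf4 set 1438992_x_at gave r = -0.69 with 1426658_x_at, -0.82 with 1456584_x_at, -0.67 with 1437621_x_at and 0.051 with 1454714_x_at. Their rho were -0.60, -0.73, -0.48 and 0.20. By permutation the adjusted p over the 8 pairs were 0.064, 0.016, 0.064 and 0.89 for r. For rho they were 0.20, 0.079, 0.27 and 0.61. Without the 2 arrays farthest from that set's median the r were -0.72, -0.51, -0.45 and 0.17.

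Atf5 and Trib3 had the highest positive correlation (r = 0.65, rho = 0.44, permutation p = 0.040 and 0.21, adjusted p = 0.72 and 0.97). It was 0.82 without WT 1 and KO 5, and with 1 array left out it lay between 0.35 (without WT 1) and 0.90 (without KO 5). Without KO 5 its adjusted p by exact permutation was 0.017, where that of Atf4 and Phgdh was 0.29, and with each of the other 9 arrays left out in turn it lay between 0.58 and 0.98. In WT 1 both were at their highest, while in KO 5 Atf5 was at its lowest and Trib3 second highest.

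**Figure D3:**
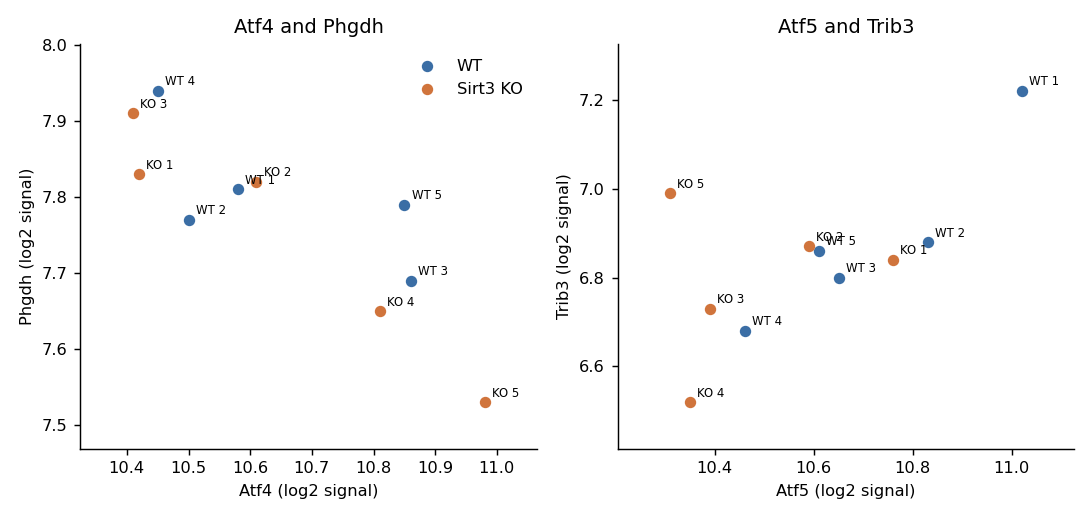
Log2 signals of Atf4 against Phgdh and of Atf5 against Trib3, leading sets, 1 point per array with WT in blue and KO in orange. Phgdh was 7.91 in KO 3, the lowest array in Atf4, and 7.53 in KO 5, the highest in Atf4. WT 1 and KO 5 stand apart in the plot of Atf5 and Trib3.

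Other genes of the pathway also gave no call. Of 62 measured genes of a wider list of 64, 21 had a higher and 41 a lower KO mean, with a median of -0.05 log2 units and 0 past the adjusted threshold. Over the leading sets of all 18193 genes 43.9% had a higher KO mean, with a median of -0.01. At an unadjusted p under 0.05 by limma there were 4 of the 62, of which 2 were higher and 2 lower, beside 5.41% of all single-gene sets. Among the leading sets of all 18193 genes 337 were higher and 499 lower at that threshold. Of the 62 there were 9 without WT 2, and also 9 without KO 3. The count over all 34945 single-gene sets was 1892 in the main fit, 2925 without WT 2 and 1831 without KO 3. Groups did not overlap in 3 of the 62, of which 2 were higher and 1 lower in KO, beside 0.693% of all single-gene sets. Among the leading sets of all 18193 genes 37 were higher and 77 lower without overlap. The tRNA synthetases, which load amino acids onto tRNA and include many ATF4 targets, together with the tRNA exporter Xpot, had a lower KO mean in 11 of 13 (median -0.10). Enzymes of amino acid and one-carbon metabolism were lower on average in 8 of 9 (median -0.08), and amino acid transporters in 4 of 8 (median 0.02). The eIF2 kinases and regulators had medians near 0 (0.0068, 6 of 11 higher). The unfolded protein response of the endoplasmic reticulum, a neighbouring pathway, had a lower KO mean in 9 of 16 leading sets (median -0.01). None of these leading sets had an unadjusted p under 0.05 by limma. Herpud1, a target of that pathway, differed by -0.28 ± 0.17 and turned to 0.022 without WT 4 and WT 5. Of the pathway's other genes, the disulfide isomerase Pdia6 differed by -0.15 ± 0.076 (-0.048 without those arrays), and the chaperone Calr by -0.11 ± 0.080 (-0.0097 without them). A dimmer Pdia6 set, 1430983_at, gave -0.25 ± 0.092, with an unadjusted p of 0.021 and an adjusted p of 0.885 by limma. The sensor Atf6 differed by 0.098 ± 0.059 (0.028 without WT 5, KO 1 and KO 3). Its other sets gave 0.076 ± 0.061 and 0.16 ± 0.066, with unadjusted p of 0.24 and 0.038 and adjusted p of 0.895 and 0.885 by limma. Edem1, which helps clear misfolded protein, differed by 0.12 ± 0.070, with all 5 KO arrays above the WT mean (0.024 without WT 4 and WT 5), and its second set by -0.03 ± 0.060. The chaperone Dnajb9 differed by -0.13 ± 0.13 and turned to 0.0092 without WT 4 and WT 5.

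The gene of the wider list farthest from 0 was Atf3, a stress factor induced by ATF4 and by many other stimuli. It gave 7.38, 6.67, 7.01, 6.32 and 6.74 in WT 1 to 5, and 7.84, 7.52, 7.68, 8.29 and 7.41 in KO 1 to 5. Every KO array lay above every WT array, the nearest being WT 1 and KO 5. The difference was 0.93 ± 0.20, with an adjusted p of 0.885 by limma. Atf3 is also 1 of the 15 immediate early and heat shock genes whose values are given above. Aars, alanyl-tRNA synthetase, gave 9.41, 9.36, 9.17, 9.29 and 9.15 in WT 1 to 5, and 9.12, 9.02, 9.01, 9.07 and 9.01 in KO 1 to 5. Every KO array lay below every WT array, the nearest being WT 5 and KO 1. The difference was -0.23 ± 0.064 (adjusted p = 0.885 by limma), and its second set gave -0.15 ± 0.065.

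Eif2ak2, the kinase PKR, which responds to double-stranded RNA, differed by 0.17 ± 0.070 (0.081 without WT 4 and WT 5), also without overlap, but its other sets gave -0.04 ± 0.083 and 0.15 ± 0.15. Dele1, the protein that carries mitochondrial stress to an eIF2 kinase, differed by -0.18 ± 0.077, with a dim second set at -0.08 ± 0.075. Fgf21, a hormone induced in brown fat and under mitochondrial stress, differed by 0.20 ± 0.099. Its set had a mean of 5.64, below the median mean of 5.99 over all sets. Aldh18a1, of proline synthesis, differed by -0.17 ± 0.078 in a set with a mean of 4.56 (-0.069 without WT 5, KO 1 and KO 3). The other 4 Aldh18a1 sets lay between -0.13 and 0.020. The smallest adjusted p among these genes was 0.885 by limma.

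**Figure D4:**
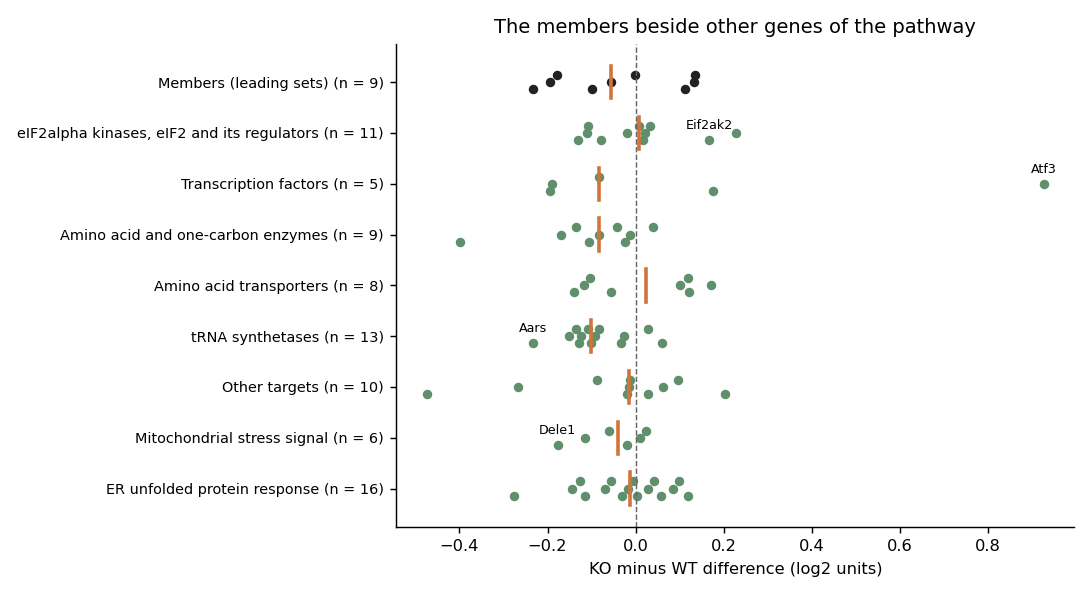
KO minus WT differences in log2 units (horizontal axis) of the 9 members and of the wider pathway by role, 1 point per gene, with the median of each row as an orange bar. Atf3 stands alone at 0.93, and the tRNA synthetases lie mostly below 0.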

How the data were processed

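Per the submitters' processing notes, the deposited log2 signals of 45101 probe sets were made with RMA, which makes array distributions alike and so hides a shift common to all transcripts; the sources used here name no software for it. Array medians lay between 5.58 and 5.61, and the number of arrays limits the precision. Groups and replicate numbers come from the sample titles, and nothing further says how samples were collected or which shared a litter. The limma p-values set each group difference against the spread between these samples within groups, with the samples treated as independent.

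Single-gene sets (34945) were compared, KO minus WT, by limma 3.58.1 (lmFit, then eBayes) under R 4.3.3, two-sided, without covariates, and adjusted over all 34945. Control sets (64), sets with several genes (932) and sets with no gene listed (9160) were left out. Errors beside differences are standard errors of this fit. Correlations were tested by two-sided permutation in Python 3.11.15. The fit and the permutation code were tested on simulated data. The members and gene lists were chosen with earlier results of these data known. Named genes are all members and, in wider lists, genes of smallest unadjusted p, up to 6 a list. The correlations planned over 45 pairs cover 36, since Gdf15 is not analysed here. Alternatives were another quantile normalization, median centring, a filter on dim sets, trended and robust eBayes, weighted arrays, other choices of set, the replicate number as a block, a muscle covariate and leaving out arrays.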

Additional observations from a re-analysis of the deposited data

How the results depend on the processing

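Over 23 alternatives 0 members and 0 wider list genes were called, and the number of sets called over the table lay between 0 and 1 with 1 array left out (1 without WT 2) and was 0 otherwise. Members with an unadjusted p under 0.05 numbered between 0 and 2. Wider list genes with an unadjusted p under 0.05 numbered 3 to 9 (9 without WT 2 or KO 3, 8 without WT 4 and WT 5). In the fits on all 34945 sets the same count over the table ran from 1477 (without WT 5) to 2938 (with the muscle covariate). With 1 probe set per gene it was 851, out of 18193 sets. Atf5, Trib3, Asns, Psat1, Phgdh and Mthfd2 kept their sign wherever they were fitted; the filter on dim sets left out Psat1 and Mthfd2, and dropping sets named _s_at, _x_at or _a_at left out Atf5, Trib3, Psat1 and Phgdh. Atf4 turned to 0.024 with quantile normalization, 0.046 with the mean of all probe sets, 0.059 with the muscle covariate and 0.20 without WT 5, KO 1 and KO 3, and lay between -0.085 and 0.058 with 1 array left out. Ddit3 turned to -0.14 without WT 4 and WT 5 and to -0.15 without WT 5, KO 1 and KO 3, and lay between -0.014 and 0.24 with 1 array left out. Chac1 turned to 0.055 with the muscle covariate, where the median over members was 0.055 too; with 1 array left out that median lay between -0.085 and -0.018. The cause of these turns was not tested.

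The replicate number as a block gave 0 calls and 2 members with an unadjusted p under 0.05 by limma (Asns and Atf5). The same count over all 34945 single-gene sets was 1642 with the block and 1892 in the main fit. Same-numbered arrays correlated between -0.33 and 0.17 in their deviations from the group means, and 0 of 5 WT arrays correlated best with their own number, so the number was not used as a pairing. Pairs of members past the adjusted threshold numbered 1 with deviations from the group means (Atf4 and Phgdh). They numbered 0 without the 2 farthest arrays and 0 after the fit on the muscle mean. With 1 array left out they numbered 0 to 1 (1 without WT 2 or WT 5, Atf4 and Phgdh, and 1 without KO 5, Atf5 and Trib3).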
